A study of Drosophila melanogaster with 20 samples.

Results

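The genes Edem1, Edem2, Herp, sip3, Hrd3, Der-1, Der-2 and TER94 of ER-associated degradation were followed in whole male flies with and without heat shock. They were taken by symbol from the table of counts, so they are 8 of its 17807 genes, and all 8 were among the 14270 genes tested for a heat shock change. Messenger RNA was sequenced from 2-day-old males of 10 inbred lines of the Drosophila Genetic Reference Panel, a collection derived from wild-caught flies. Each library came from 10 pooled flies, with 1 library per line and treatment, so the spread given throughout is between lines and not between pools of a line. Untreated flies were kept at 25 °C, and heat shocked flies were frozen straight after 30 minutes at 35 ± 1 °C. By the labels, preconditioning (a mild stress given before a stronger one) was beneficial in lines RAL69, RAL93, RAL359, RAL387 and RAL409 and detrimental in lines RAL195, RAL304, RAL335, RAL737 and RAL819. The submitters dropped RAL409 after a principal component analysis, and it is left out of every test here, which leaves 4 beneficial and 5 detrimental lines, each with and without heat shock. No transgene or mutation beyond the lines' own genetic background is named.

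Proteins that fail to fold in the endoplasmic reticulum (ER) are recognised there, moved back across its membrane, tagged with ubiquitin and degraded by the proteasome. EDEM proteins trim the sugar chains of misfolded glycoproteins and so mark them for removal. In yeast and mammals the ubiquitin ligase Hrd1, its partner Hrd3 and the Derlins form the membrane complex through which such proteins leave. The ATPase p97 then pulls them into the cytosol. In mammals several of these genes, Herp and the EDEMs among them, are induced by the unfolded protein response, the ER's own stress pathway.

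All members were read deeply, with at least 482 counts in each of the 18 libraries tested, and library totals ran from 18410625 to 33663046 counts over all 20 libraries. Whole flies hold many tissues, and in such bulk samples fewer cells of a type and less RNA per cell cannot be told apart. Each of 5 testis, 5 accessory gland, 5 muscle, 5 gut, 5 neuron and 4 hemocyte markers was read in every group, and 0 of them changed with heat shock by the edgeR test used for the members. Blocking on fly line, 1 testis and 1 neuron marker rose and 1 gut and 1 hemocyte marker fell. The 3 yolk protein genes, which are high in females, summed to at most 11.1 CPM. All 7 heat shock genes used to check the treatment rose, for instance Hsp68 by a log2 of 7.03 ± 0.11 (SE), in 9 of 9 lines. CPM is the count scaled to a common library total, with libraries set against each other by the TMM method (a trimmed mean of log ratios). This sets changes relative to the bulk of genes. Scaled by library totals alone, the median of all tested genes stood at −0.19 on the log2 scale with heat shock, and calls split into 696 higher and 4236 lower against 1183 and 1372 with TMM.

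The members lie on 4 chromosome arms and share no exonic bases with another gene on the same strand. TER94 (FBgn0286784, BDGP6 2R, positions 9989159 to 9993559, plus strand) encodes the fly p97. sip3 (FBgn0039875, 3R, 31772219 to 31775163, plus strand), also known as Hrd1, encodes the ubiquitin ligase, and Hrd3 (FBgn0028475, 3R, 23754623 to 23758557, minus strand) its partner. The Derlins are encoded by Der-1 (FBgn0267972, 2L, 1973957 to 1975413, plus strand) and Der-2 (FBgn0038438, 3R, 16482694 to 16484223, minus strand). Herp (FBgn0031950, 2L, 7796314 to 7800058, minus strand) encodes a membrane protein with a ubiquitin-like domain that in mammals binds the ligase complex. Edem1 (FBgn0023511, X, 1903704 to 1908827, minus strand) and Edem2 (FBgn0032480, 2L, 13192201 to 13197281, plus strand) encode the EDEM proteins. Exons of 5 members overlap those of a gene on the opposite strand, from 1.3% of the exonic bases of Edem1 to 5.79% of those of Hrd3, whose neighbours include the proteasome gene Rpt5. The libraries were stranded, but whether counting used strand is not given in the sources used here. Exonic length ran from 1243 bases in Der-1 to 4752 in Edem1, with a median of 2978 over the members against 1821 over 12493 tested protein-coding genes.

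TER94 was by far the most abundant member, and the EDEM genes were the least abundant. Levels between genes are compared as CPM per kb of exon. Without heat shock TER94 stood at 148 ± 8.37 CPM per kb (SD, n = 9 lines), 3.18 times Der-1, the next in order. Der-1 (46.7 ± 13.0), Herp (44.2 ± 8.08) and sip3 (42.4 ± 4.14) lay close together, and their order was not the same in every library. Der-1 exceeded Herp in 6 of 9 libraries and Herp exceeded sip3 in 5 of 9. Hrd3 followed at 36.3 ± 1.66 CPM per kb, below sip3 in 8 of 9 libraries, and Der-2 at 30.8 ± 2.11, below Hrd3 in 9 of 9. Edem2 (14.6 ± 0.632) and Edem1 (7.54 ± 0.83) closed the order, with Edem2 above Edem1 in 9 of 9 libraries.

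With heat shock the order was the same except that Herp (46.9 ± 7.33 CPM per kb) stood ahead of Der-1 (44.8 ± 11.9), in 6 of 9 libraries. Der-1 exceeded sip3 (44.3 ± 5.29) in 4 of 9. In the plot of levels per kb no library of another member reaches the range of TER94, and none falls to the range of the EDEM genes. Among all tested genes the members ranked high in CPM, from the percentile 67.3 of Edem1 to the percentile 98.2 of TER94 without heat shock.

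**Figure D1:**
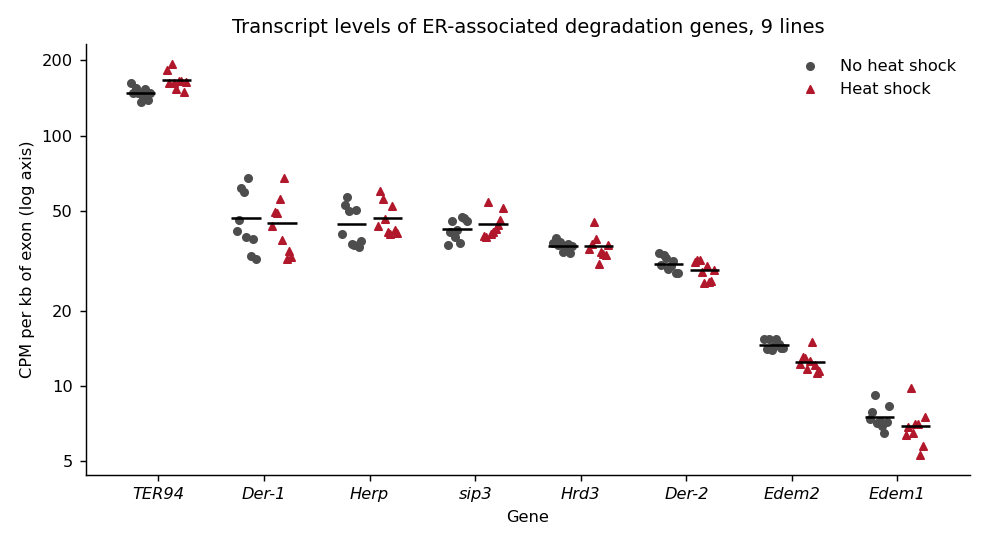
Level of each member in CPM per kb of exon (log axis) in the 9 lines tested, without (circles) and with heat shock (triangles), with bars at the means. TER94 lies between 136 and 194 CPM per kb, Edem1 between 5.29 and 9.85, and Der-1, Herp and sip3 overlap.

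Treated and untreated libraries of the 9 lines were compared first, to see which of these transcripts moved within the 30 minutes of heat. TER94 rose (not when scaled by library totals) and Edem2 fell, both slightly, and 6 of 8 members did not pass the test. The test was edgeR's quasi-likelihood F test with Benjamini-Hochberg adjustment over all 14270 genes and a threshold of 0.05. By that rule 17.9% of all genes were called (8.29% higher and 9.61% lower), so 2 of 8 members is close to the share among all genes. The median change of the members was −0.03 on the log2 scale against 0.00 over all genes. The median size of change, without its sign, was 0.09 for the members and 0.14 for all genes. Scaled by library totals, 4 members were called, Edem1, Edem2, Hrd3 and Der-2, each lower. That scaling called 4932 of all 14270 genes, 4236 of them lower.

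TER94, the p97 ATPase, stood at 471, 495, 531, 480 and 513 CPM without heat shock in the detrimental lines RAL195, RAL304, RAL335, RAL737 and RAL819. In the same lines and order it stood at 532, 573, 570, 515 and 564 CPM with heat shock. In the beneficial lines RAL69, RAL93, RAL359 and RAL387 it went from 563, 513, 538 and 511 CPM to 634, 561, 671 and 559.6 CPM. It was higher after heat shock in 9 of 9 lines, although levels of treated and untreated lines overlapped. Over all genes 5.08% did not overlap between treatments, and of the members 0 of 8. The mean went from 513 ± 28.9 to 575 ± 48.5 CPM (SD, n = 9 lines), a log2 change of 0.17 ± 0.05 (SE, edgeR adjusted p = 0.0255). With line as a block, which pairs the libraries of a line, the change was 0.17 ± 0.04 (adjusted p = 0.00685). Lines were left out only in the fit without that block. There the call was lost when any of 5 lines was left out: RAL69 (adjusted p = 0.0516), RAL195 (0.0554), RAL304 (0.0588), RAL819 (0.0504) and RAL359 (0.146, log2 change 0.13). Scaled by library totals TER94 stood at −0.03 (adjusted p = 0.74), above the shifted median gene but without a call.

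Edem2, one of the sugar-trimming factors, fell in each of the 9 lines. In the detrimental lines, named in the order used for TER94, it went from 59.2, 62.8, 60.1, 57.7 and 57.7 CPM to 51.5, 61.0, 49.5, 45.9 and 46.7 CPM. In the beneficial lines it went from 62.7, 57.3, 63.2 and 56.8 CPM to 50.2, 53.5, 52.6 and 47.6 CPM. RAL304 was the one line that kept nearly its untreated level, and its heat shock value alone lies within the untreated range of 56.8 to 63.2 CPM. The mean fell from 59.7 ± 2.58 to 50.9 ± 4.60 CPM (SD, n = 9 lines), a log2 change of −0.23 ± 0.06 (SE, edgeR adjusted p = 0.00725). This call held whichever line was left out, with adjusted p between 0.00128 and 0.0329 and changes between −0.26 and −0.22.

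Edem1, the other EDEM gene, did not pass. Its untreated levels ran from 30.8 to 43.9 CPM with a median of 34.6, and its heat shock levels from 25.1 to 46.8 CPM with a median of 32.6 (n = 9 lines each). It was lower after heat shock in 7 of 9 lines, the exceptions being RAL304 and RAL359. The log2 change was −0.12 ± 0.10 (SE, edgeR adjusted p = 0.487). With line as a block it was −0.13 ± 0.05 (adjusted p = 0.0586).

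The ligase complex did not pass. sip3, the ligase, had a median of 112 CPM without heat shock (97.01 to 126) and of 113 CPM with it (105 to 145), a log2 change of 0.07 ± 0.08 (adjusted p = 0.668). Hrd3, its partner, had medians of 121 CPM (112 to 129) and 117 CPM (102 to 149), a log2 change of −0.01 ± 0.05 (edgeR adjusted p = 0.968), and was higher in 3 of 9 lines. Herp was higher in 7 of 9 lines, with medians of 104 CPM (92.2 to 145) and 111 CPM (104 to 154) and a log2 change of 0.09 ± 0.09 (adjusted p = 0.65). With line as a block Herp stood at 0.09 ± 0.04 (adjusted p = 0.121). Scaled by library totals, Herp stood at −0.11 and sip3 at −0.12.

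Neither Derlin passed. Der-1 had medians of 51.7 CPM (40.1 to 83.8) without and 54.2 CPM (39.8 to 84.2) with heat shock, a log2 change of −0.06 ± 0.17 (edgeR adjusted p = 0.907). Der-2 had medians of 42.1 CPM (39.2 to 47.2) and 40.5 CPM (36.0 to 44.3), a log2 change of −0.09 ± 0.05 (adjusted p = 0.278), and was lower in 6 of 9 lines.

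The 95% intervals of the 6 members without a call give the sizes of change that are not excluded. Without a block the widest was that of Der-1, from −0.41 to 0.29 on the log2 scale, and the narrowest those of Der-2 (−0.19 to 0.02) and Hrd3 (−0.11 to 0.10). With line as a block the interval of Der-1 narrowed to −0.16 to 0.05 and that of Herp to −0.00 to 0.18. The same 2 members were called with the block, and by that fit 35.3% of all genes were called.

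**Figure D2:**
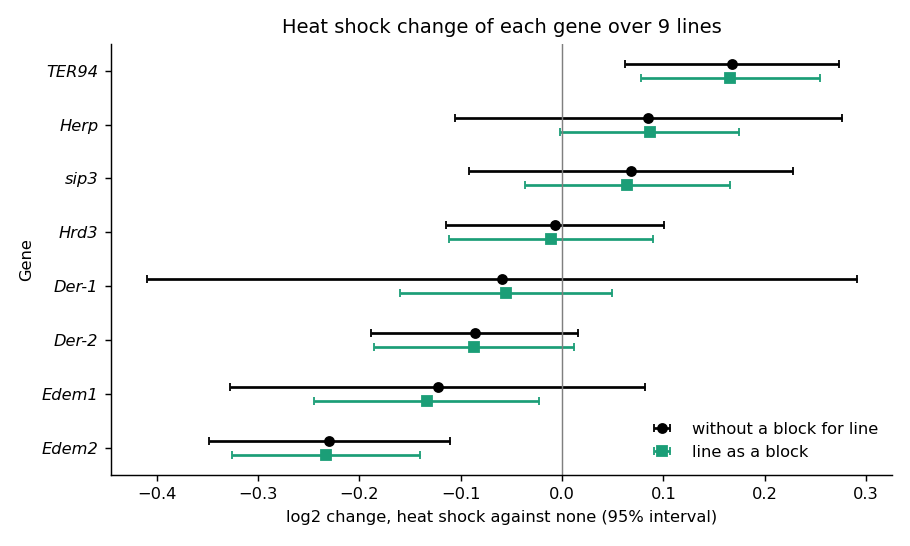
log2 change of each member with heat shock against none over 9 lines with its 95% interval, from the fit without a block for line (black circles) and with line as a block (green squares). The intervals of TER94 and Edem2 lie to one side of 0 in both fits (with scaling by library totals TER94 stood at −0.03), and that of Der-1 narrows most with the block.

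RAL359 stood apart in several members. In it the changes of TER94 (0.32), Hrd3 (0.30) and sip3 (0.25) were the highest of the 9 lines and that of Der-1 (−0.33) was the lowest. The heat shock library of RAL359 held the highest level of 5 of 8 members among the 9 lines, and its untreated library that of 3 of 8. The shares of all genes that were highest in these libraries were not counted. Over 12649 genes with a mean of at least 1 CPM, each doubling of exonic length went with a log2 change 0.16 higher in RAL359, against −0.02 to 0.06 in the other 8 lines. Der-1 is the shortest member, and Edem1, Edem2, TER94 and Hrd3 are the longest. In RAL359 Edem1 changed by 0.09, its highest, and Edem2 by −0.26, its median over the 9 lines. Der-2, the next shortest after Der-1, changed by −0.06 there and Herp by −0.02. The part of this length trend in the values of RAL359 was not tested. Without RAL359 the change of Hrd3 was −0.07, that of sip3 0.02 and that of TER94 0.13.

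RAL409, left out of the tests, had a TER94 change of 0.35 and an Edem2 change of 0.04. In it TER94 went from 464 to 591 CPM and Edem2 from 54.9 to 56.5 CPM, so Edem2 did not show the direction of the other 9 lines. With RAL409 included in the fit both calls remained.

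**Figure D3:**
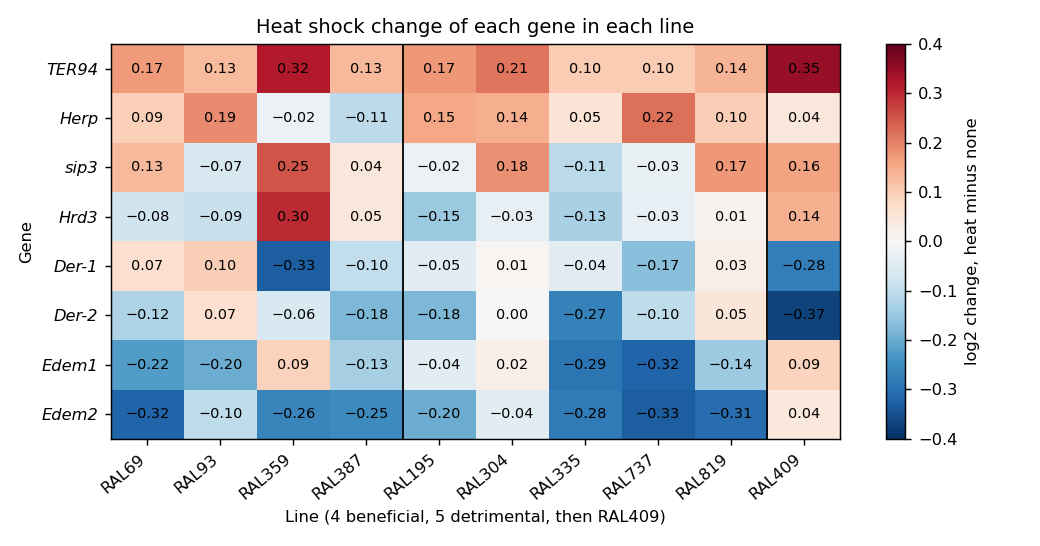
log2 change of each member in each line, heat shock minus none, with the value in each cell, beneficial lines to the left, detrimental lines in the middle and RAL409 at the right. TER94 is positive in all 10 lines, Edem2 is negative in the 9 lines tested, and Hrd3 stands at 0.30 in RAL359 and between −0.15 and 0.05 in the other 8.

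Paralogs and partners were set against each other within lines, by a two-sided exact permutation test that flips the sign of each line's difference, whose smallest possible p is 0.00391 with 9 lines. Edem1 exceeded Edem2 in its log2 change by 0.10 ± 0.13 (SD, n = 9 lines), higher in 7 of 9 lines, with exact p = 0.043 and p = 0.0996 adjusted over the 3 pairs. sip3 exceeded Hrd3 by 0.08 ± 0.10, also in 7 of 9 lines (exact p = 0.0664, adjusted p = 0.0996). Der-1 and Der-2 differed by 0.03 ± 0.15, with Der-1 higher in 6 of 9 lines (exact p = 0.512, adjusted p = 0.512). No pair passed after adjustment. Without RAL359 the difference between sip3 and Hrd3 was 0.09 (unadjusted exact p = 0.0156) and that between Edem1 and Edem2 was 0.06 (0.0859).

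Each class was then taken alone. TER94 stood at 0.19 ± 0.07 in beneficial and 0.15 ± 0.07 in detrimental lines, Edem2 at −0.24 ± 0.08 and −0.22 ± 0.08 (SE, n = 4 and 5 lines). In edgeR without a block 0 of 8 members passed in either class, where 7.63% and 9.96% of all genes did. At an unadjusted p under 0.05, TER94 and Edem2 passed in both classes, as did 17.1% and 19.6% of all genes. Without RAL304, Edem2 passed in beneficial (adjusted p = 0.0441) and in detrimental lines (0.0177). With line as a block TER94 (adjusted p = 0.0491) and Edem2 (0.0203) passed in beneficial lines and Edem2 (0.0108) in detrimental lines, where TER94 had an adjusted p of 0.075. By that fit 19.4% and 22.9% of all genes were called.

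Whether the classes responded differently was tested directly. As beneficial minus detrimental response, TER94 differed by 0.04 (95% interval −0.17 to 0.25) and Edem2 by −0.01 (−0.25 to 0.23). The largest difference in size was that of Hrd3, 0.11 (−0.10 to 0.33), which fell to 0.01 without RAL359. In edgeR 0 of 8 members and 0% of 14270 genes passed, with 42 genes (0.294%) and 0 members at an unadjusted p under 0.05. In DESeq2, and in edgeR with the block, 0 members and 0 genes passed. The 95% intervals of the members lay between −0.74 and 0.66 without the block (both ends from Der-1) and between −0.27 and 0.31 with it. Differences within its interval are not excluded for a member. They are not limits of detection, since a call must also pass the adjustment over all genes.

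Between lines the members differed in how much they varied, with the widest spread of line means in Der-1. The line mean of Der-1 over both treatments spanned 2.07-fold from RAL335 to RAL304 and that of Edem1 1.63-fold from RAL335 to RAL359. That of Herp spanned 1.46-fold, from RAL304 to RAL359. Edem2, Der-2 and TER94 spanned 1.20-fold, 1.19-fold and 1.21-fold, against a median of 1.60-fold over all tested genes. The SD of line means divided by the SD of line responses was 2.85 for Der-1 and 2.24 for Herp, against a median of 1.06 over all genes, which put them at the percentiles 96.0 and 91.7 of tested genes. The same ratio was 1.42 for Edem1, 1.4 for TER94 and 1.11 for sip3, and 0.841 for Edem2, 0.844 for Der-2 and 0.741 for Hrd3.

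Der-1 in line RAL304 stood at 83.8 CPM untreated and 84.2 CPM heat shocked, while the other detrimental lines stood at 40.1 to 49.1 and 39.8 to 47.5 CPM. The beneficial lines lay between, at 51.7, 57.4, 76.8 and 74.0 CPM without heat shock for RAL69, RAL93, RAL359 and RAL387. They stood at 54.2, 61.4, 61.1 and 69.2 CPM with it. So each beneficial line exceeded 4 of the 5 detrimental lines under both treatments, and RAL304 exceeded every beneficial line. The share of all genes with such an order of lines was not counted.

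Herp showed the like pattern with another line. RAL335 stood at 129 CPM untreated and 134 CPM heat shocked, while the other detrimental lines stood at 92.2 to 97.5 and 104 to 107 CPM. The beneficial lines stood at 104, 135, 145 and 128 CPM without and at 111, 154, 143 and 119 CPM with heat shock, in the same order of lines. Each beneficial line exceeded 4 of the 5 detrimental lines under both treatments, and RAL335 lay within the beneficial range. How many of all genes show such an order was not counted here either. Neither Herp nor Der-1 passed between classes (edgeR adjusted p = 0.999 without and with heat shock).

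**Figure D4:**
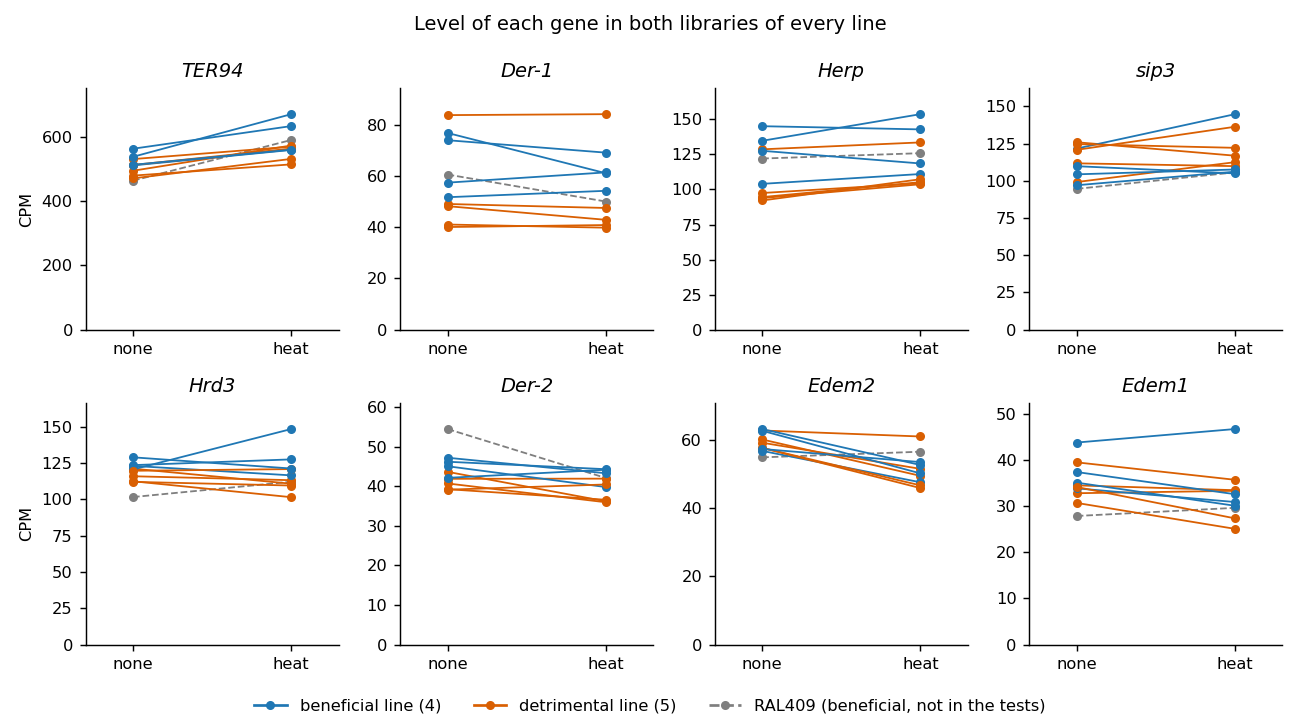
CPM of each member without and with heat shock, 1 line per fly line, beneficial lines in blue, detrimental lines in orange and RAL409 dashed in grey, with each axis starting at 0. The lines of Der-1 lie far apart, from 40.1 to 83.8 CPM without heat shock, those of Edem2 slope down in the 9 lines tested and up in RAL409, and those of TER94 slope up in all 10.

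The classes were compared next in untreated flies. In edgeR 0 of 8 members and 0% of 13770 genes passed, with 576 genes at an unadjusted p under 0.05. Of the members 7 of 8 stood higher in beneficial lines (6 of 8 with RAL409 included, where Edem2 stood at −0.01), against 49.2% of all genes, and the median log2 ratio was 0.11 against −0.00 over all genes. Related lists described below also had medians above 0. These were 0.06 over 32 proteasome subunits and 0.08 over 10 sugar-chain genes. The unfolded protein response core stood at 0.05 and 17 further factors of degradation at 0.01. Herp had the highest ratio, with 128 ± 17.5 CPM in the 4 beneficial against 101 ± 15.4 CPM in the 5 detrimental lines (SD), a log2 ratio of 0.33 ± 0.13 (SE, edgeR unadjusted p = 0.0258, adjusted p = 0.999). It was the one member with an unadjusted p under 0.05, as were 4.18% of all genes. With each line left out in turn the ratio of Herp ran from 0.27 to 0.44, the highest without RAL335, and never passed. In the authors' deposited table the ratio of Herp was 0.33 with an adjusted p of 0.812.

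Der-1 stood at 65.0 ± 12.3 against 52.5 ± 17.99 CPM (SD, n = 4 and 5 lines), a log2 ratio of 0.31 ± 0.22 (edgeR adjusted p = 0.999). With each line left out in turn its ratio ran from 0.22 to 0.54, the highest without RAL304, and never passed. Der-2 stood at 45.2 ± 2.2 against 40.9 ± 1.89 CPM (0.14 ± 0.07, adjusted p = 0.999) and Hrd3 at 124 ± 3.52 against 116 ± 4.12 CPM (0.09 ± 0.06, adjusted p = 0.999). sip3 was the one member lower in beneficial lines, at 108 ± 10.4 against 116 ± 11.1 CPM (−0.11 ± 0.10, adjusted p = 0.999). The classes overlapped for each of the 8 members, and over all genes 1.29% did not overlap. DESeq2 called 22 genes and 0 members.

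Under heat shock the same lines gave like ratios, which are not independent of the untreated ones since each line gave both libraries. Of the members 6 of 8 stood higher in beneficial lines (49.1% of all genes; Edem2, at −0.00, stood at 0.04 when scaled by library totals), with a median log2 ratio of 0.17 against −0.00 over all genes. The lean was not particular to the members, since all 32 proteasome subunits described below also stood higher, at 0.01 to 0.19 (median 0.09). Medians were 0.05 over 17 further factors of degradation, 0.04 over 10 sugar-chain genes and 0.02 over the unfolded protein response core. Der-1 stood at 61.5 ± 6.09 against 51.1 ± 18.7 CPM (0.27 ± 0.21, adjusted p = 0.999) and Herp at 132 ± 20.1 against 111 ± 12.8 CPM (0.24 ± 0.12, adjusted p = 0.999). Hrd3 stood at 128 ± 14.1 against 111 ± 6.97 CPM (0.21 ± 0.09, adjusted p = 0.999) and at 0.13 without RAL359, whose heat shock library stood at 149 CPM. In the authors' deposited table Hrd3 had a ratio of 0.21 with an unadjusted p of 0.0463 and an adjusted p of 0.983. In edgeR 0 of 8 members and 0% of 13877 genes passed, with 611 genes (4.4%) and 0 members at an unadjusted p under 0.05. The classes overlapped for 8 of 8 members, and over all genes 1.43% did not overlap. DESeq2 called 12 genes and 0 members. The summed level of the 4 hemocyte markers with heat shock was 75.4 to 156 CPM in beneficial and 95.1 to 217 CPM in detrimental lines. Median log2 class ratios with heat shock were −0.41 for gut, −0.36 for hemocyte and −0.19 for muscle markers. Those of testis, neuron and accessory gland markers were −0.02, −0.00 and 0.07. The part of tissue make-up in the class ratios was not tested.

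Other genes of the pathway were read from lists chosen by role. Of 17 further factors of ER-associated degradation (cofactors of p97, ubiquitin enzymes, a lectin and shuttle proteins) 3 rose and 0 fell, with a median of 0.07 on the log2 scale. The blocked fit called 5 higher and 1 lower. Over all genes 17.9% were called without and 35.3% with the block, so both counts are close to those shares. The same shares apply to the lists that follow. Ubqn, a ubiquilin that carries ubiquitin-tagged proteins to the proteasome, rose by 0.35 ± 0.05 (SE, n = 9 lines), from 200.4 ± 12.0 to 255 ± 16.2 CPM (SD). Ubc7, a ubiquitin-conjugating enzyme of this pathway, rose by 0.22 ± 0.05 and the ligase gene sordd1 by 0.18 ± 0.06 (edgeR adjusted p = 0.00207 and 0.0484). Reads of sordd1 may be shared with its neighbour sordd2, a paralog (0.12 ± 0.05, adjusted p = 0.132). The p97 cofactors Ufd1 and Npl4, which hold ubiquitin-tagged substrates to the ATPase, stood at 0.01 ± 0.06 and 0.06 ± 0.09.

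Of the 10 sugar-chain genes, listed for the quality control of glycoproteins, 1 rose and 0 fell (median 0.03), and the blocked fit called 3 higher and 3 lower. The one that rose was Cnx99A, a calnexin, which holds glycoproteins while they fold, at 234 ± 19.8 CPM (SD) in untreated and 317 ± 32.0 CPM in treated lines (log2 change 0.44 ± 0.06, SE). Of 32 proteasome subunits 1 rose and 3 fell (median −0.01), and the block added Rpt3 to those called lower (adjusted p = 0.0374). Rpn6 rose by 0.39 ± 0.04, while Rpn11 fell by 0.23, Rpn12 by 0.30 and Rpt5 by 0.17 on the log2 scale. Rpt5 is 1 of 2 genes that overlap Hrd3 on the genome, and which of them holds the shared exonic bases was not worked out.

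Several genes of the unfolded protein response rose further than any member. Of 11 genes of its core 4 rose and 1 fell, with a median of −0.01. With the block 4 were called higher and 3 lower, Atf6 (adjusted p = 0.00153) and S2P (0.00239) beside Ire1. The ER chaperone Hsc70-3 (BiP) changed by 1.29 to 2.09 over the 9 lines, the sensor kinase PEK by 0.91 to 1.42, the transcription factor Xbp1 by 0.64 to 1.121 and the chaperone Gp93 by 0.63 to 1.25. The sensor Ire1 fell by 0.22 (adjusted p = 0.0216). No member rose by more than 0.32 in any of the 9 lines (the lowest change was −0.33, of Der-1 in RAL359), so the lowest change of each of the 4 genes that rose lay above the highest of any member. That gap is a description of these lines, with no test of the difference.

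**Figure D5:**
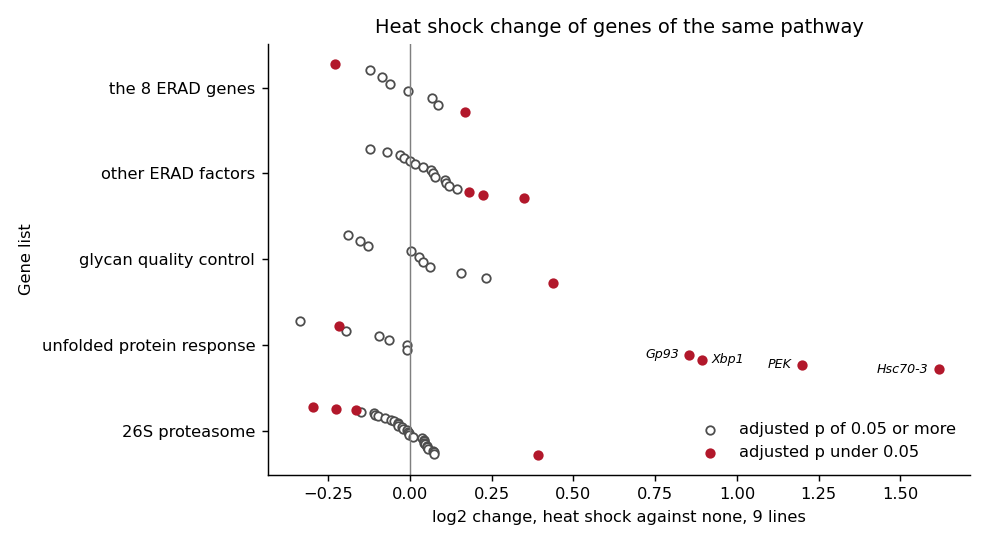
log2 change with heat shock over 9 lines (horizontal axis) of the genes of 5 lists, filled where the edgeR adjusted p was under 0.05 and open elsewhere. Hsc70-3, PEK, Xbp1 and Gp93 lie at 0.85 to 1.62, and the 8 members lie between −0.23 and 0.17.

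For Edem2, the member with the largest change, the genes with the most alike profile were found by the root-mean-square difference of mean-centred log2 CPM over the 18 libraries. They were Rox8 (0.08), mRpL19 (0.08), Scamp (0.08), Bap60 (0.08) and CkIIalpha (0.08), and the profile of Edem2 itself had a root mean square of 0.15. With heat shock they stood at −0.22, −0.31, −0.21, −0.22 and −0.26 on the log2 scale. A like fall was set by the choice, since the 18 libraries used to pick them include the heat shocked ones.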

How the data were processed

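Per the file headers, the deposited main table holds a whole-number read count for each FlyBase gene and library, with no scaling. The authors also deposited a table for each treatment that sets beneficial against detrimental lines without RAL409, with a log2 ratio, its standard error, a p-value and an adjusted p-value. BDGP6, Bowtie2 (2.2.9), SAMtools (1.12) and DESeq2 (1.28.1) stand in the submitters' processing notes, which give them no roles. The counting tool is not given in the sources used here. Symbols, positions and exonic lengths came from Ensembl release 115 for BDGP6, which matched 17710 of 17807 identifiers.

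Tests used R 4.3.3 and edgeR 4.0.16 on the whole table: filterByExpr, TMM scaling, quasi-likelihood F tests, Benjamini-Hochberg adjustment and a threshold of 0.05. Heat shock comparisons came from 1 fit of 18 libraries with 1 coefficient per class and treatment, and class comparisons from the 9 libraries of a treatment. The study states no block for line, so none was used. Both libraries of a line share its genotype, and after group means were removed they correlated at 0.547 to 0.8 across genes, against at most 0.118 between lines. A fit with line as a block therefore stands beside calls and counts of calls that it changed. CPM of RAL409 were scaled over all 20 libraries. Responses of single lines are differences of log2 CPM with a prior count of 2. Exonic length is the union of a gene's annotated exons. DESeq2 1.42.0, other scalings and filters, a threshold of 0.1, RAL409 included and each line left out were the alternatives.

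Members and lists were chosen with earlier results of these data known, so no p was adjusted over the members alone. Named beside the members were up to 4 called genes of each pathway list with the smallest p and the 5 genes most like the member that changed most. Ufd1, Npl4, sordd2, Ire1, Atf6, S2P, Rpt3 and the ranges of line variation were added after their values had been seen. The fits were tested on simulated data. The simulated libraries shared no line effect and their changes were larger than those of the called members. They therefore do not show how the fits do with paired libraries or changes of this size. P-values measure the spread between lines, and totals of 18.4 to 33.7 M counts set the counting error only. That spread is of levels in the fits without a block. In the blocked fit and the permutation tests it is of the responses of lines.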

Additional observations from a re-analysis of the deposited data

Results flagged for a closer look

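In 6 of 32 groups of lines (8 members, 2 classes and 2 treatments) 1 line lay apart from the rest by Dixon's test, which by chance happens in about 1 in 20 groups. The share of such groups over all tested genes was not counted, so 6 of 32 is not shown to be particular to the members. The groups are not independent, since both treatments hold the same lines, and 4 of the 6 are 2 lines found under both. Der-1 in RAL304 (83.8 CPM without and 84.2 CPM with heat shock) and Herp in RAL335 (129 and 134 CPM) lay above the other detrimental lines under both treatments. Edem1 (46.8 CPM) and sip3 (145 CPM) in the heat shock library of RAL359 lay above the other beneficial lines (30.1 to 32.6 and 105 to 108 CPM). RAL409, which no test used, had 54.5 CPM of Der-2 without heat shock, above the other 9 lines (up to 47.2 CPM), and 42.1 CPM with it.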

How the results depend on the processing

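With line as a replicate block the 9 lines kept 2 members called, while 2 were called in beneficial and 1 in detrimental lines, where 0 were without it. Over all genes the block gave 5032 calls against 2555 (9 lines), 2767 against 1089 (beneficial) and 3265 against 1422 (detrimental). It changed no other member's call. Library totals gave 4, 2 and 3 members called and 4932, 2178 and 3443 genes. A threshold of 0.1 gave 1 member in detrimental lines. Leaving out each line gave 1 to 2 members over 9 lines and 0 to 1 in each class, with 628 (without RAL387) to 1117 genes in beneficial and 936 (without RAL335) to 1419 in detrimental lines. It put the difference between Edem1 and Edem2 at 0.0629 to 0.1197 (exact p 0.0156 to 0.0859) and that between sip3 and Hrd3 at 0.0614 to 0.0946 (0.0156 to 0.133).

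Values whose sign turned follow, and the cause was not tested. With library totals, heat shock against none over 9 lines gave Herp −0.1108, sip3 −0.1247 and TER94 −0.0272. In beneficial lines it gave Herp −0.1355, sip3 −0.0729 and Hrd3 −0.125, and in detrimental lines Herp −0.0862, sip3 −0.1766 and TER94 −0.0706. The response difference became 0.0336 for Edem2 and 0.0071 for Der-1, and the heat shock class ratio of Edem2 0.0439. Hrd3 over 9 lines stood at 0.001 with RLE size factors, 3e-04 in DESeq2 and 0.0011 with RAL409 included. With RAL409 included the response difference was 0.0456 for Edem2 and −0.039 for Der-2, and the class ratio of Edem2 was −0.0146 without and 0.0334 with heat shock. The latter was 0.0034 with every gene kept and 0.0011 in DESeq2. With each line left out, Hrd3 ran from −0.071 to 0.0157 over 9 lines and from −0.0667 to 0.0958 in beneficial lines, and Herp there from −0.0167 to 0.086. The response difference ran from −0.053 to 0.0932 for Edem1, −0.0561 to 0.0429 for Edem2, −0.0189 to 0.1124 for sip3, −0.0958 to 0.0376 for Der-1, −0.0218 to 0.0617 for Der-2 and −0.0169 to 0.0633 for TER94. Class ratios of Edem2 ran from −0.0114 to 0.0418 without and −0.0346 to 0.071 with heat shock, and that of sip3 with heat shock from −0.17 to 0.0046. Of the other alternative values for members, 690 kept direction and side of the threshold, 14 passed it and 5 lost it. With 1 pool per line and treatment, the spread between pools of a line was not measured.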
